A study of Mus musculus with 16 samples.

Results

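Inflammasomes are cytosolic complexes that detect microbial products or damage and activate inflammatory caspases. A sensor binds the adaptor ASC, ASC recruits caspase-1, and caspase-1 cleaves gasdermin D, whose freed part forms pores in the plasma membrane. This lytic death is pyroptosis, and NINJ1 carries out the final rupture of the membrane. In a non-canonical route, lipopolysaccharide (LPS) that reaches the cytosol is bound by mouse caspase-11, the product of Casp4, which cleaves gasdermin D without a sensor complex. Pulmonary endothelial cells (ECs) line the vessels of the lung, and this route is known as one way in which LPS kills them.

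The genes described were 9 of the 54532 listed in the expression tables, chosen by name: Casp4, Casp1, Gsdmd, Nlrp3, Pycard, Aim2, Nlrc4, Casp8 and Ninj1. All 9 were found and all 9 passed the filter on low values in both comparisons. RNA-seq was done in bulk on ECs taken from mouse lungs with magnetic beads, by CD31 after removal of CD45-bearing cells. In the first experiment, male wild-type (WT) C57/BL6J mice of 8 weeks received saline (4 libraries) or LPS at 10 mg/kg (6 libraries) into the trachea. In the second, Fgfr1 loxP/loxP mice (3 libraries) and Fgfr1 iΔEC/iΔEC mice (3 libraries) received LPS at 2 mg/kg, so both of these groups carried the floxed alleles and the LPS dose. Fgfr1 iΔEC/iΔEC mice carry VE-cadherin-CreERT2, a tamoxifen-inducible Cre driven by an endothelial promoter, so Fgfr1 is deleted in VE-cadherin-expressing cells, and tamoxifen was given to mice of both genotypes. Deletion was induced in adult mice, and an age in weeks is not given for them in the sources used here. Cells were taken 24 h after instillation in all groups. The libraries held 13478726 to 18807007 reads assigned to genes in the saline group, 17840221 to 19043015 in the LPS group, 15969575 to 17002788 in the loxP/loxP group and 16642177 to 16943522 in the iΔEC/iΔEC group. Levels are given in FPKM, read numbers scaled to gene length and library size, which can be compared between genes.

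Casp4 and Casp1 lie side by side on the same strand of chromosome 9 in GRCm38, with 1562 bases between the end of Casp1 and the start of Casp4. Their promoters are shown because both are inflammatory caspase genes that rose with LPS, and because the Casp4 window was the only one to hold a motif searched among the 8 genes with a promoter in the table used. Each run covers 250 bases before to 50 bases after a RefSeq start, from the GRCm38.p6 annotation, on the plus strand, and capitals mark κB-like matches, the kind of sequence that NF-κB binds.
Casp4, chr9:5308599-5308898: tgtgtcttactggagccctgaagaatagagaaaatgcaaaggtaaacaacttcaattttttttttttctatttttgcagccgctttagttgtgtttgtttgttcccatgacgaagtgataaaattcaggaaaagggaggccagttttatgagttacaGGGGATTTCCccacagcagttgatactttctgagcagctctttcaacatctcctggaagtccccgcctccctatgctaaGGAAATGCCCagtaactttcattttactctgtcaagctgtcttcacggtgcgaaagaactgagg
Casp1, chr9:5298267-5298566: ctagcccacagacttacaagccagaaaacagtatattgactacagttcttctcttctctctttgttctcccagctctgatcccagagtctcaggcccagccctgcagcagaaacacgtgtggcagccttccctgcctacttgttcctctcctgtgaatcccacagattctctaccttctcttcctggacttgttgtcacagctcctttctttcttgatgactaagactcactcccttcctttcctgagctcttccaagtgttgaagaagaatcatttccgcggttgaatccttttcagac
The κB-like motif was searched on both strands. Casp4 held a match at 93 to 84 bases before the start (chr9:5308756-5308765) and another, on the opposite strand, at 14 to 5 bases before it (chr9:5308835-5308844). The second annotated start of Casp4 lies 11 bases downstream and shares both matches. A match stood in 535 of 32851 promoters of this length (1.63%). An interferon-stimulated response element-like motif, found in 3.44% of promoters, and a GAS-like motif, of the kind that STAT factors bind, found in 8.3%, had no match in the 10 promoters listed for 8 of the genes. No promoter of Gsdmd was in the table used. These matches describe letters in a window and do not show binding.

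The endothelial label was checked first. Pecam1, which encodes CD31, was at 400 ± 81.5 FPKM (SD, n = 4) in saline and 358 ± 76.8 FPKM (n = 6) in LPS libraries, with overlapping ranges (log2 fold change -0.17, adjusted p = 0.516 by limma, a linear-model test fitted and adjusted over all genes). Summed over 10 endothelial markers, levels were 5478, 3351, 4194 and 3469 FPKM in saline libraries 1 to 4, and 1477, 2956 and 3538 FPKM were the lowest, median and highest LPS sums. Of these 10 markers, 5 fell and 0 rose. Cldn5, a tight-junction claudin, was the most abundant endothelial marker in every group.

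Leukocyte RNA was present and higher after LPS, despite the CD45 depletion. Ptprc, which encodes CD45, was at 11.0, 7.44, 3.53 and 5.93 FPKM in saline libraries 1 to 4 and at 22.1, 30.5 and 52.7 FPKM (lowest, median, highest) in LPS libraries. The groups did not overlap, and the change was 2.19 ± 0.28 on the log2(FPKM + 1) scale (SE; limma adjusted p = 0.000112). All 6 leukocyte markers rose, with sums of 227, 156, 76.5 and 138 FPKM in saline against 641, 1144 and 1554 FPKM in LPS, led by Coro1a, a leukocyte actin-binding protein.

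Of 8 neutrophil markers, 7 rose, with sums of 1380, 69.5, 307 and 74.1 FPKM in saline against 1293, 2604 and 6638 FPKM in LPS, led by S100a9, a granulocyte calcium-binding protein. Of 8 macrophage markers, 7 rose, with sums of 1109, 472, 735 and 373 FPKM in saline against 1863, 3170 and 4030 FPKM in LPS, led by Lyz2, which encodes lysozyme. No marker of these lists was at or under 3 reads in every library of a group. Neutrophils and macrophages are known to express inflammasome genes. Leukocyte RNA moved with every rise described here, and its part in them was not tested. In bulk RNA, more cells of a type and more RNA per cell cannot be told apart.

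No marker of the other lists rose, and 23.7% of all genes tested fell. Of 5 lymphocyte markers tested, 3 fell and 0 rose, and their summed level had a median of 108 FPKM in saline and 25.2 FPKM in LPS (most abundant gene Cd79a, a B-cell receptor chain). Of 9 epithelial markers tested, 2 fell and 0 rose (medians 1712 and 674 FPKM, led by the surfactant gene Sftpc). Of 6 fibroblast markers, 4 fell and 0 rose (medians 74.5 and 35.2 FPKM, led by Dpt), and of 7 mural markers, 2 fell and 0 rose (medians 52.9 and 60.9 FPKM, led by Acta2).

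**Figure D1:**
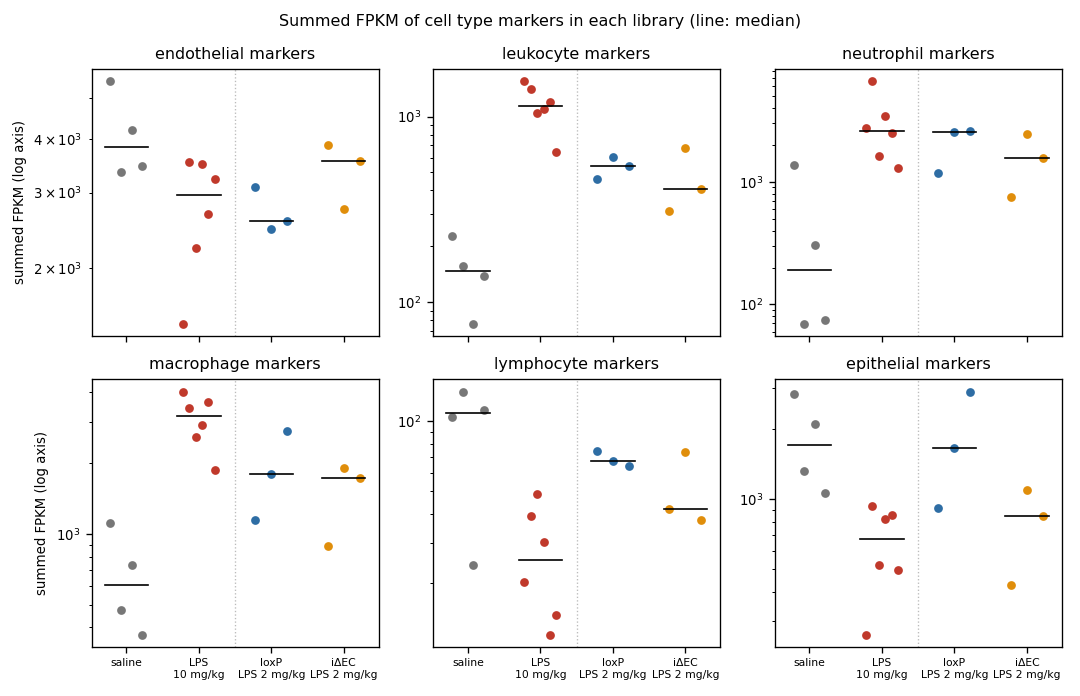
Summed FPKM of 6 marker lists in every library (log axis), by group, with a line at each group median. Leukocyte, neutrophil and macrophage sums were higher in LPS than in most saline libraries, and saline library 1 had a neutrophil sum of 1380 FPKM while the rest of its group had 69.5 to 307 FPKM.

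Saline library 1 stood apart from the other saline libraries, with the highest leukocyte, neutrophil, macrophage, epithelial and endothelial sums and the fewest reads (13478726). It was kept, and the counts of the 9 genes and of the pathway genes called are also given without it.

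LPS against saline asked what happens in WT lung ECs during acute lung injury. All 9 inflammasome and pyroptosis genes rose at an adjusted p of 0.05 or less, and 0 fell. The largest fold changes were those of the sensor Nlrp3 (15.9-fold between group means), the adaptor Pycard (7.57-fold), the sensor Nlrc4 (6.02-fold) and Ninj1 (5.16-fold). Casp8 changed least (1.39-fold). Saline library 1 carried much of the Nlrp3 mean in saline, and without it the fold was 46.5 for Nlrp3, 7.58 for Ninj1, 6.96 for Pycard and 6.20 for Nlrc4. On the log2(FPKM + 1) scale of the test the order was Nlrp3, Ninj1, Pycard, Casp1, Casp4 and then Nlrc4. With the further limit of an absolute log2 fold change of 1, 7 of the 9 were called higher, the exceptions being Gsdmd and Casp8. Across all 14893 genes tested, 29.5% rose at the adjusted p alone and 11.9% with the fold limit, while 23.7% and 6.79% fell. The median log2 fold change was 1.65 for the 9 genes and 0.01 for all genes tested. Libraries of the 2 groups did not overlap for 8 of the 9 genes, Casp8 being the exception, and LPS stood wholly above saline for 22.7% of all genes tested. Without saline library 1, 7 were called. For each of the 8, the exact permutation p was 0.00952 (two-sided), the smallest that 4 against 6 libraries allow.

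**Figure D2:**
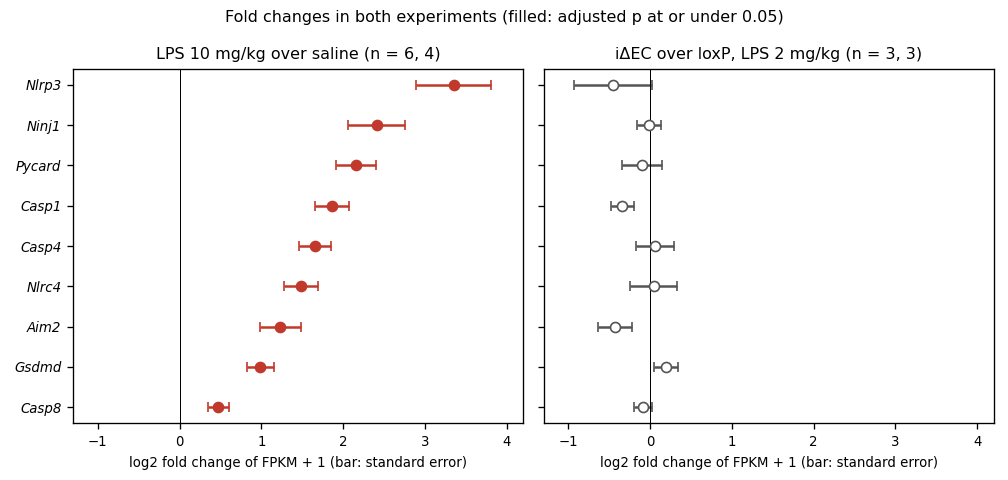
Log2 fold change of each of the 9 genes on the log2(FPKM + 1) scale for LPS over saline and for iΔEC/iΔEC over loxP/loxP. Bars show the standard error from limma, not a confidence interval. The LPS changes run from 0.47 (Casp8) to 3.35 (Nlrp3), and those between genotypes from -0.45 (Nlrp3) to 0.20 (Gsdmd).

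Casp4 and Casp1, both inflammatory caspase genes, rose with LPS. Casp4 (ENSMUSG00000033538, chr9:5308828-5336783), the intracellular LPS receptor, was at 2.77, 4.02, 3.76 and 3.66 FPKM in saline libraries 1 to 4. In LPS libraries its lowest, median and highest levels were 9.86, 12.0 and 21.3 FPKM. Every LPS library was above every saline library, and LPS 2 was highest. The change was 1.65 ± 0.19 on the log2(FPKM + 1) scale (SE; limma adjusted p = 5.03e-05), a 3.85-fold difference between means. Casp1 (ENSMUSG00000025888, chr9:5298517-5307265), the caspase that matures IL-1β and IL-18, was at 4.90, 6.34, 4.60 and 3.56 FPKM in saline. Its LPS levels were 12.0, 22.1 and 26.3 FPKM. The groups were apart here too, with LPS 6 the lowest treated library and LPS 1 the highest. Casp1 rose by 1.86 ± 0.21 (SE; limma adjusted p = 3.90e-05), or 4.25-fold.

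The pore and rupture genes were among the most abundant of the 9. Gsdmd (ENSMUSG00000022575, chr15:75862327-75867408), which encodes the pore-forming gasdermin D, was at 29.8, 45.7, 44.5 and 43.8 FPKM in saline and at 61.2, 83.5 and 97.8 FPKM (lowest, median, highest) in LPS libraries. Saline 1 was well below the other saline libraries, and no LPS library reached down to them. Gsdmd rose by 0.98 ± 0.16 (SE; limma adjusted p = 0.000571), a 2.00-fold difference of means just under the fold limit, and it passed that limit under 9 of 18 other settings. Gsdmd already had the highest mean level of the 9 genes in saline, where all 4 libraries held more Gsdmd than Casp8, the next gene in order.

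Ninj1 (ENSMUSG00000037966, chr13:49187485-49196244), which drives plasma membrane rupture, was at 48.1, 15.2, 19.2 and 15.7 FPKM in saline and at 69.5, 116 and 189 FPKM in LPS libraries. Saline 1 was the highest of its group but still below every LPS library. Ninj1 rose by 2.41 ± 0.35 (SE; limma adjusted p = 0.000227), or 5.16-fold. It moved from the third place by mean level in saline to the first in LPS, where all 6 libraries held more Ninj1 than Gsdmd. Both genes kept ranges that overlapped across libraries in that group.

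The sensors started low. Nlrp3 (ENSMUSG00000032691, chr11:59541568-59566956), a sensor of membrane damage and ion flux, was at 4.19, 0.446, 0.690 and 0.313 FPKM in saline, where 25 to 225 reads were counted. Its LPS levels were 11.3, 17.9 and 50.2 FPKM. Nlrp3 was the most variable of the 9, with saline 1 and LPS 1 each far above the rest of their group, yet no LPS library overlapped saline. It rose by 3.35 ± 0.46 (SE; limma adjusted p = 0.000156), and by 3.802 without saline 1 and 3.09 without LPS 1.

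Aim2 (ENSMUSG00000037860, chr1:173350879-173466040), a sensor of cytosolic DNA, was at 3.11, 2.71, 0.848 and 2.39 FPKM in saline and at 4.88, 5.598 and 10.4 FPKM in LPS libraries. The lowest LPS libraries were not far above saline 1, and saline 3 was the lowest of all. Aim2 rose by 1.23 ± 0.25 (SE; limma adjusted p = 0.00196), and by 0.98 without saline 3, under the fold limit (adjusted p = 0.00421). Nlrc4 (ENSMUSG00000039193, chr17:74425438-74459142), which with NAIP proteins detects bacterial flagellin and secretion systems, was the least abundant gene of the 9 in both groups. Its saline levels were 0.639, 0.755, 0.249 and 0.709 FPKM, from 21 to 79 reads, and its LPS levels 2.07, 3.33 and 5.71 FPKM. All LPS libraries were above all saline libraries, and the change was 1.48 ± 0.21 (SE; limma adjusted p = 0.000196).

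Pycard (ENSMUSG00000030793, chr7:127989708-127993867) encodes ASC, the adaptor that links sensors to caspase-1. It was at 0.935, 1.51, 1.21 and 1.40 FPKM in saline and at 4.48, 10.6 and 13.2 FPKM in LPS libraries. The saline libraries lay close together, LPS 6 was the lowest treated library, and the groups did not overlap. Pycard rose by 2.16 ± 0.24 (SE; limma adjusted p = 4.41e-05). Its exons share 485 bases with Gm45205, an unclassified gene on the opposite strand with a mean of 0.03 FPKM. Exons of the other members shared 0 bases with the genes that overlap them.

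Casp8 (ENSMUSG00000026029, chr1:58795374-58847503), the initiator caspase of death-receptor apoptosis, which can also cleave gasdermin D, was at 20.5, 27.8, 31.1 and 24.6 FPKM in saline and at 29.7, 37.0 and 40.5 FPKM in LPS libraries. LPS 6 lay inside the saline range, so the groups overlapped. The change was 0.47 ± 0.13 (SE; limma adjusted p = 0.0110; exact permutation p = 0.0190). It was 0.07 with quantile normalisation (adjusted p = 0.710) and 0.28 with scaling on total reads (adjusted p = 0.125), so the rise of Casp8 depended on the scaling.

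**Figure D3:**
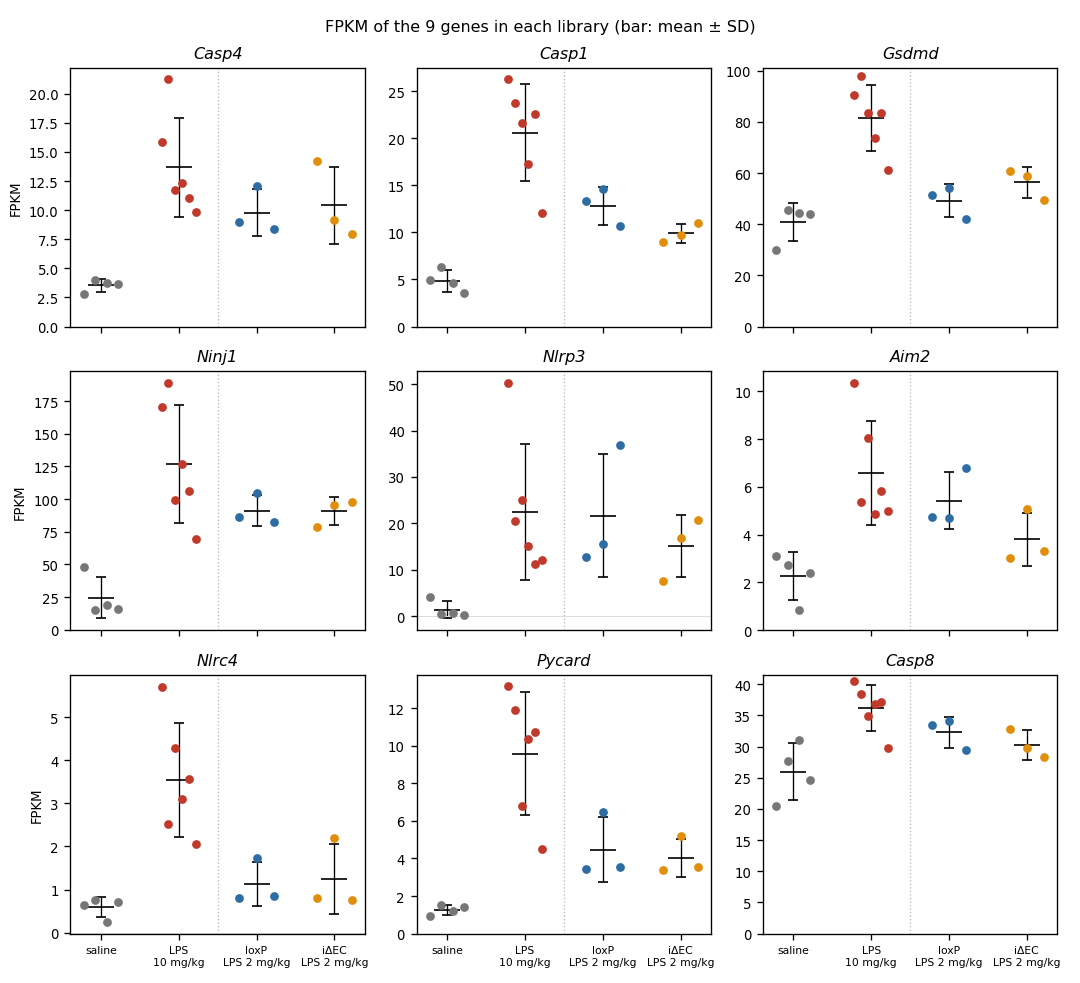
FPKM of each of the 9 genes in every library, with the mean and SD of each group. Each panel has its own linear axis. For 8 genes the LPS points lie wholly above the saline points, and loxP/loxP and iΔEC/iΔEC points overlap for all 9.

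The order of levels differed between groups. In saline, Gsdmd (40.9 ± 7.48 FPKM), Casp8 (26.0 ± 4.51) and Ninj1 (24.6 ± 15.8) lay above Casp1 (4.85 ± 1.15), with no overlap between Ninj1 and Casp1. Below these came Casp4, Aim2, Nlrp3 and Pycard, neighbours with overlapping ranges, and then Nlrc4 (0.588 ± 0.231), which was below Pycard in all 4 libraries without overlap. In LPS, the order was Ninj1 (127 ± 45.1 FPKM), Gsdmd (81.7 ± 12.9), Casp8 (36.3 ± 3.68), Nlrp3 (22.4 ± 14.6), Casp1 (20.6 ± 5.14), Casp4 (13.7 ± 4.24), Pycard (9.57 ± 3.28), Aim2 (6.58 ± 2.19) and Nlrc4 (3.54 ± 1.32; all SD, n = 6). Only Gsdmd and Casp8 had ranges apart among neighbours in this order, and Nlrp3 exceeded Casp1 in 3 of 6 libraries.

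Libraries within the LPS group were not alike. LPS 6 was the lowest for 7 of the 9 genes, and LPS 1 was the highest for 6 and LPS 2 for the other 3. LPS 6 also had the lowest leukocyte (641 FPKM), neutrophil (1293 FPKM) and macrophage (1863 FPKM) sums of the LPS libraries. LPS 1 had the highest leukocyte (1554 FPKM) and macrophage (4030 FPKM) sums and the lowest endothelial sum (1477 FPKM). The part of these sums in the spread was not tested.

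Levels were also set against Ptprc in each library, a ratio chosen after the data were seen. For Aim2 the ratio was 0.240 to 0.404 in saline and 0.173 to 0.225 in LPS. For Casp8 it was 1.87 to 8.80 in saline and 0.769 to 1.36 in LPS. In both the LPS ratios were lower without overlap. Ptprc itself rose 4.96-fold between group means, more than Aim2 (2.90-fold) or Casp8 (1.39-fold). Any gene that rises less than Ptprc has a lower ratio of group means. The share of all genes whose ratios fell without overlap is not given here. For Nlrp3 the ratio was 0.0528 to 0.381 in saline and 0.345 to 0.953 in LPS, which overlapped. This overlap rested on saline 1 alone, as the other saline ratios lay below every LPS ratio. Casp4 (0.252 to 1.06 against 0.270 to 0.754), Casp1 (0.446 to 1.30 against 0.499 to 0.839), Pycard (0.0851 to 0.342 against 0.157 to 0.420), Nlrc4 (0.0582 to 0.120 against 0.0895 to 0.110) and Ninj1 (2.05 to 5.44 against 2.29 to 6.68) overlapped too, as did Gsdmd (2.71 to 12.6 against 1.72 to 3.46). The Gsdmd overlap also rested on saline 1, as the other saline ratios lay above every LPS ratio.

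The genes most alike in pattern were found over the 10 libraries by the root-mean-square difference of centred log2(FPKM + 1) values, among genes averaging 5 FPKM or more. Nearest to Casp4 were Spsb2 (0.155) and Phf11b (0.174), and nearest to Casp1 were Rgs19 (0.165) and Nrros (0.188). Nlrp3 lay nearest to Plek (0.281) and Cd33 (0.290), genes of platelets and myeloid cells, Pycard to Mcm5 (0.174) and Blvrb (0.183), and Aim2 to Wdfy4 (0.140) and Gmip (0.149). Nlrc4 was nearest to Pitpnm1 (0.0957) and Sh3kbp1 (0.152), and Ninj1 to Tpd52 (0.159) and Selplg (0.208), the latter the P-selectin ligand of leukocytes. Gsdmd was nearest to Atg4d (0.0932) and Nudcd2 (0.1005), and Casp8 to Rpe (0.0679) and Lamtor3 (0.0739).

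Around the 9 genes, 65 others of the pathway were listed by role, of which 53 passed the filter. Of these, 32 rose and 9 fell, and 20 were called higher and 1 lower with the fold limit, with a median log2 fold change of 0.49. Nlrp1a and Nlrp1b passed the filter only through their LPS level, and Nlrc3 only through its saline level. The rises of Nlrp1a and Nlrp1b and the fall of Nlrc3 were therefore built in, and the counts and the median include them. Nlrp1a is also among the 20. Of all genes tested, 29.5% rose and 23.7% fell, and 11.9% and 6.79% were called. Without saline library 1 the counts with the fold limit were 19 and 2. The falls depended on the scaling and on single libraries: with scaling on the endothelial markers, which moved the median of all genes to 0.54, 40 rose and 0 fell, with Irf1 (0.23), Il1r1 (0.20) and Serpinb9 (0.12) turned positive, and 5 fell without saline 2 or without saline 4.

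Of 11 other cytosolic sensors, 8 passed the filter and rose. Nlrp1a (0.115 FPKM in saline, 1.52 FPKM in LPS) and Nlrp1b (0.142 and 0.802 FPKM) passed it only through their LPS level, so a rise was built into these 2. Of the other 6, 5 were past the fold limit. Among all genes tested, 29.5% rose and 11.9% did so past the fold limit. Nlrp1b did not pass without saline 2, saline 3 or saline 4 (highest adjusted p = 0.0607 by limma). Nlrp6, Nlrp9b and Naip1 were not tested. Mefv, which encodes the sensor pyrin and is known from neutrophils and monocytes, was at 3.53, 0.445, 0.586 and 0.375 FPKM in saline and at 18.7, 27.1 and 59.0 FPKM in LPS libraries (log2 fold change 3.94 ± 0.38, SE). Naip2, the receptor that hands bacterial secretion-system rods to NLRC4, was at 1.29 to 1.77 FPKM in saline and 13.6 to 28.5 FPKM in LPS (2.95 ± 0.18). Naip5, a flagellin receptor, was at 0.625 to 1.54 and 5.401 to 12.7 FPKM (2.16 ± 0.24). Naip genes are near-identical copies that can share reads, so how these levels divide among them is uncertain.

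Of 11 upstream genes, which license or induce the sensors, 2 rose and 3 fell, with a median of -0.08. In this main fit the shares are near those of all genes tested, of which 29.5% rose and 23.7% fell. With scaling on the endothelial markers 6 rose and 0 fell, and without saline 1 the counts were 1 and 4. Irf1, one of the 3 that fell in the main fit, did not pass without saline 2, 3 or 4 or without LPS 1, 3, 4, 5 or 6 (highest adjusted p = 0.138 by limma). Txnip, a thioredoxin-binding protein that can bind NLRP3, was the only one of the 53 pathway genes called lower, at 1895, 499, 432 and 269 FPKM in saline against 204, 233 and 251 FPKM in LPS libraries. Its change was -1.32 ± 0.42 (SE; limma adjusted p = 0.0220) and -0.74 without saline 1, where it was no longer called, while P2rx7 (-1.15) and Casp12 (-1.08) then were. Irf8, a myeloid and lymphoid transcription factor, rose by 1.05 ± 0.26 (SE; limma adjusted p = 0.00566), and by 0.75 without saline 3, under the fold limit. Gm12250, which encodes the GTPase IRGB10 that exposes bacterial LPS, was at 1.66, 9.15, 9.67 and 1.95 FPKM in saline and 8.34 to 15.0 FPKM in LPS. It overlapped between groups, and its change of 1.17 (limma adjusted p = 0.0262) was 0.83 without saline 1. It did not pass without saline 1 or without saline 4 (highest adjusted p = 0.0891).

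None of the 9 other gasdermins passed the filter, so Gsdmd was the only gasdermin tested. Gsdme, which caspase-3 cleaves, had the highest LPS mean among them, at 0.464 ± 0.143 FPKM (SD, n = 6) against 0.109 ± 0.0673 FPKM in saline.

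Among the cytokines and their receptors, 3 of 5 rose and 1 fell, beside 29.5% and 23.7% of all genes tested. The 1 that fell was Il1r1 (-0.39, limma adjusted p = 0.0369), which did not pass without saline 2, 3 or 4 or without LPS 1, 2, 4 or 5. Il1b, the main caspase-1 substrate, was at 265, 4.46, 27.9 and 5.25 FPKM in saline and at 266, 634 and 1137 FPKM in LPS libraries (log2 fold change 4.83 ± 0.94, SE), and saline 1 all but reached the lowest LPS library. The change was 6.01 without saline 1 and 4.14 without saline 2. Il1a, a related alarmin, was at 1.46 to 2.17 FPKM in saline and 33.5 to 136 FPKM in LPS (4.71 ± 0.35). Il18 was at 1.36 to 3.58 and 2.29 to 6.80 FPKM, which overlapped, and its change of 0.79 ± 0.26 (limma adjusted p = 0.0252) did not pass without saline 1, saline 2, saline 4 or LPS 5 (highest adjusted p = 0.0777).

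Genes that restrain the pathway numbered 9, of which 5 rose and 4 fell, beside 29.5% and 23.7% of all genes tested. The falls became 0 with scaling on the endothelial markers. Nlrc3, one of the 4, passed the filter only through its saline level (0.912 FPKM, against 0.383 FPKM in LPS). Only 2 fell without saline 2 or without saline 4, as Serpinb9 and Nlrc3 did not pass there, and Serpinb9 did not pass under 9 of the settings run. Only 4 rose without saline 1, saline 4 or LPS 5, as Il18bp did not pass there (highest adjusted p = 0.0803 by limma). Il1rn, the IL-1 receptor antagonist, was at 2.96, 0.425, 0.486 and 0.147 FPKM in saline and at 78.8, 124 and 262 FPKM in LPS libraries (6.32 ± 0.42). Tnfaip3, the deubiquitinase A20, was at 19.8, 4.89, 4.34 and 4.99 FPKM in saline and 39.0, 47.2 and 108 FPKM in LPS (2.79 ± 0.40). Il1r2, the decoy receptor of IL-1 and a neutrophil gene, rose by 4.59 ± 0.96, although saline 1 (59.5 FPKM) lay inside the LPS range of 35.3 to 151 FPKM, and by 5.93 without that library.

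Among caspase-8 partners, 7 of 12 rose and 1 fell, beside 29.5% and 23.7% of all genes tested. The fall was that of Casp6 (-0.63), which did not pass with scaling on the endothelial markers (-0.05). With that scaling Fadd, Cflar and Casp9 rose as well. Zbp1, a nucleic-acid sensor that starts necroptosis, was at 2.56 to 5.49 FPKM in saline and 26.6 to 47.0 FPKM in LPS (2.98 ± 0.21). Ripk3, the kinase of necroptosis, was at 11.1 to 13.5 and 28.5 to 45.6 FPKM (1.56 ± 0.14), and Bid, which caspase-8 cleaves, was at 1.48 to 3.66 and 6.40 to 8.42 FPKM (1.41 ± 0.17).

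Of 8 genes of membrane repair, the ESCRT machinery that sheds damaged membrane, 7 rose and 0 fell, 2 past the fold limit. Among all genes tested, 29.5% rose and 23.7% fell, and 11.9% rose past the fold limit. Without saline 1, 8 rose, and without saline 4, 5 rose. Chmp4b was at 57.0 to 106 FPKM in saline and 127 to 277 FPKM in LPS (1.38 ± 0.24), Chmp2a at 80.5 to 112 and 135 to 328 FPKM (1.06 ± 0.25, and 0.92 without LPS 2), and Chmp1a at 23.1 to 29.2 and 29.3 to 42.9 FPKM (0.49 ± 0.13). With quantile normalisation 5 of the 7 no longer passed, Chmp1a among them.

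**Figure D4:**
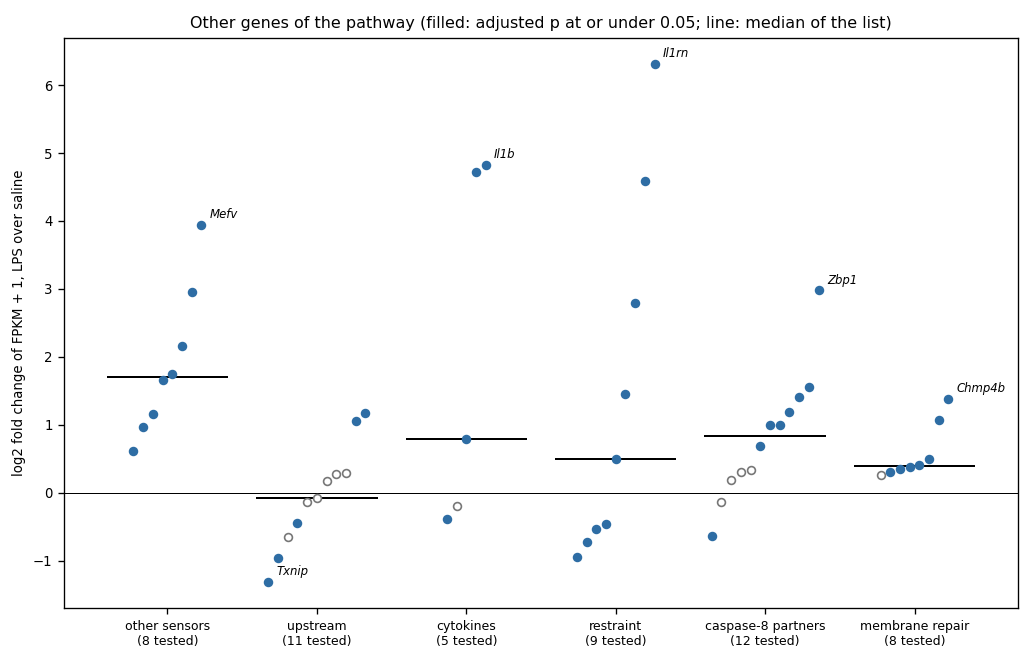
Log2 fold change for LPS over saline of every tested pathway gene, by list, on the log2(FPKM + 1) scale (filled points, adjusted p of 0.05 or less; line, median of the list). Sensors lie above 0, 2 of them (Nlrp1a and Nlrp1b) having passed the filter only through their LPS level, and upstream genes lie on both sides of it (median -0.08).

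The second experiment asked what loss of endothelial Fgfr1 changes at 2 mg/kg LPS. Fgfr1 itself was at 2.90, 2.91 and 2.59 FPKM in loxP/loxP libraries and at 0.683, 1.41 and 1.15 FPKM in iΔEC/iΔEC libraries. Every iΔEC/iΔEC library was lower, in the direction of its label, and the change was -0.88 ± 0.16 on the log2(FPKM + 1) scale (SE; limma adjusted p = 0.960, unadjusted p = 0.00103). In the first experiment, Fgfr1 was 3.61 ± 1.28 FPKM in saline and 1.81 ± 0.592 FPKM in LPS.

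For the 9 genes, 0 rose and 0 fell between genotypes by limma, and 1 had an unadjusted p under 0.05. Among all 14944 genes tested 0% rose and 0% fell at an adjusted p of 0.05 or less, the smallest adjusted p was 0.732, and 4.44% had an unadjusted p under 0.05. Limma-voom on the recovered read numbers also called 0. The groups overlapped for all 9 genes, against 6.1% of tested genes with iΔEC/iΔEC wholly above and 4.07% wholly below. An exact permutation test of 3 against 3 libraries cannot go under 0.1. A p above the threshold does not show that the genotypes were alike, so the intervals are given. They come from the fit without pairing, and with the library number as a block the SE was smaller for some genes, such as Nlrp3 (0.20 against 0.48), Pycard (0.11 against 0.24) and Nlrc4 (0.14 against 0.29).

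Casp1 had the smallest p. It was at 13.3, 14.6 and 10.6 FPKM in loxP/loxP and at 8.97, 9.76 and 11.0 FPKM in iΔEC/iΔEC libraries. The third iΔEC/iΔEC library lay above the third loxP/loxP library. The difference was -0.34 (95% confidence interval -0.67 to -0.003, limma; unadjusted p = 0.0485, adjusted p = 0.960). With the library number as a block, since same-numbered libraries tended to deviate alike, the limma p for Casp1 was 0.0751 (adjusted p = 0.646). Casp4 was at 8.94, 12.1 and 8.36 FPKM in loxP/loxP and at 14.2, 9.12 and 7.99 FPKM in iΔEC/iΔEC libraries, and the first iΔEC/iΔEC library was highest of all. Its difference was 0.06 (-0.49 to 0.61).

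Gsdmd was at 51.5, 54.1 and 42.0 FPKM in loxP/loxP and at 60.9, 58.9 and 49.4 FPKM in iΔEC/iΔEC libraries. It was higher in 3 of 3 pairs of the same number (difference 0.20, interval -0.15 to 0.54), although the difference was -0.04 with scaling on the endothelial markers. Pycard and Casp8 were lower in 3 of 3 pairs, but the Pycard pair differences were only -0.01, -0.26 and -0.003. The share of all genes with 3 of 3 pairs in the same direction is not given here. Ninj1 was at 86.6, 104 and 82.7 FPKM and at 78.3, 95.6 and 98.0 FPKM, a difference of -0.01 (-0.37 to 0.35).

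Nlrp3 was at 12.7, 15.6 and 36.8 FPKM in loxP/loxP and at 7.64, 17.0 and 20.8 FPKM in iΔEC/iΔEC libraries. The third loxP/loxP library was far above the others of either genotype. The difference was -0.45 (-1.60 to 0.70), and -0.01 without the third loxP/loxP library. Aim2 was at 4.75, 4.70 and 6.81 FPKM and at 3.02, 5.08 and 3.30 FPKM, a difference of -0.43 (-0.92 to 0.06). The second iΔEC/iΔEC library was above 2 of the loxP/loxP libraries.

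Nlrc4 was at 0.808, 1.73 and 0.850 FPKM in loxP/loxP and at 0.796, 2.19 and 0.754 FPKM in iΔEC/iΔEC libraries, the second library being the highest in both genotypes. Its difference was 0.05 (-0.64 to 0.74). Pycard was at 3.42, 6.46 and 3.54 FPKM and at 3.39, 5.21 and 3.53 FPKM, again highest in the second library of both genotypes. Its difference was -0.09 (-0.68 to 0.49). Casp8 was at 33.4, 34.1 and 29.4 FPKM and at 32.9, 29.7 and 28.3 FPKM, a difference of -0.09 (-0.35 to 0.17).

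Ptprc was at 14.0, 16.8 and 23.2 FPKM in loxP/loxP and 10.1, 21.8 and 13.8 FPKM in iΔEC/iΔEC libraries. Leukocyte sums were 458, 606 and 542 FPKM against 308, 674 and 410 FPKM, neutrophil sums 1178, 2566 and 2615 FPKM against 756, 2455 and 1550 FPKM (lower in 3 of 3 pairs), and macrophage sums 1142, 1806 and 2751 FPKM against 888, 1906 and 1726 FPKM. Epithelial sums were 920, 1665 and 2904 FPKM against 428, 1098 and 846 FPKM, lower in 3 of 3 pairs, and endothelial sums were 3086, 2468 and 2573 FPKM against 3885, 2747 and 3553 FPKM, higher in 3 of 3 pairs. Mural sums were 76.0, 101 and 141 FPKM against 50.4, 90.5 and 84.2 FPKM, lower in 3 of 3 pairs. Lymphocyte and fibroblast sums went both ways within pairs. Of the 10 epithelial markers tested, 0 passed by limma and 3 had an unadjusted p under 0.05, with a median of -0.73. All these sums overlapped between genotypes, and their part in the differences was not tested.

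Of the 52 pathway genes tested here, 0 passed by limma and 1 had an unadjusted p under 0.05. This was Serpinb1a, an inhibitor of neutrophil proteases and inflammatory caspases, at 19.2, 16.8 and 19.0 FPKM in loxP/loxP and 14.9, 11.3 and 15.9 FPKM in iΔEC/iΔEC libraries. The genotypes did not overlap (difference -0.38, limma unadjusted p = 0.0357, adjusted p = 0.960). They did not overlap for Panx1 (lower) or Vps4b (higher) either, which makes 3 of the 52, where 6.1% of all genes tested stood wholly above and 4.07% wholly below.

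The 2 tables were normalised separately, so levels across the experiments are given side by side without a test. Ninj1 averaged 24.6 FPKM in saline, 127 FPKM at 10 mg/kg LPS and 91.2 FPKM in loxP/loxP mice at 2 mg/kg. Nlrp3 averaged 1.41, 22.4 and 21.7 FPKM in these groups. Casp4 averaged 3.55, 13.7 and 9.79 FPKM, and Gsdmd 40.9, 81.7 and 49.2 FPKM. Pycard averaged 1.26, 9.57 and 4.47 FPKM, and Nlrc4 0.588, 3.54 and 1.13 FPKM. Casp1 averaged 4.85, 20.6 and 12.8 FPKM, Aim2 2.27, 6.58 and 5.42 FPKM, and Casp8 26.0, 36.3 and 32.3 FPKM. The loxP/loxP mean lay between the other means for each of these genes. The share of all genes for which it did so is not given here. The groups differ in genotype, dose and experiment together, and tamoxifen is described only for the second experiment.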

How the data were processed

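Bulk RNA-seq libraries of bead-isolated lung ECs were used as deposited. The authors aligned reads to mm10 with HISAT2 2.0.5 and counted them per gene with featureCounts 1.5.0-p3, per the labels, and deposited FPKM values per library in 1 table for each experiment. Whether counting used strand is not given in the sources used here. Library sizes in the deposited FPKM equal median-of-ratios factors to within 0.182%, and multiplying FPKM by gene length gave whole read numbers (within 0.01) for 100% of values. The range of depth in each group is in the report. Counting intervals would cover counting error only, as reads carry no molecular identifiers.

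Genes averaging 0.5 FPKM or more were tested with limma 3.58.1 (R 4.3.3, eBayes with trend) on log2(FPKM + 1), separately for each table, with Benjamini-Hochberg adjustment over all genes. "Rose" and "fell" mean adjusted p of 0.05 or less, and "called" also an absolute log2 fold change of 1. The procedure was tested on simulated data, and the share of changes recovered in each comparison is not given here. Single values also had exact permutation tests, two-sided. The labels do not say whether libraries are separate animals, so p-values measure the spread between these libraries. Replicates of a group differed beyond sampling noise, and each was counted once.

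The genes and all lists were chosen with earlier results of these data known. Named from each list were the 3 passing genes with the largest change and the most abundant gene. The titles number the libraries but state no pairing. In the second experiment, deviations of same-numbered libraries correlated at 0.248, 0.177 and 0.187. Those of differently numbered libraries correlated at -0.14 to -0.041. Alternatives were other pseudocounts, filters and scalings, limma-voom on recovered reads, a replicate block and leaving out each library.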

Additional observations from a re-analysis of the deposited data

Results flagged for a closer look

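A library far from the others of its group was found in 14 of 62 group values examined, beside a benchmark of 1 in 20, or 3.1. How often chance gives such a library was not measured. Saline library 1 accounted for 10 of the 14. Among the 9 genes, it was the lowest of its group for Gsdmd (29.8 FPKM against 43.8 to 45.7) and the highest for Nlrp3 (4.19 FPKM against 0.313 to 0.690) and Ninj1 (48.1 FPKM against 15.2 to 19.2). It was also the highest for Fgfr1 (5.52 FPKM), Mefv (3.53 FPKM), Txnip (1895 FPKM), Il1b (265 FPKM), Il1rn (2.96 FPKM), Il1r2 (59.5 FPKM against 0.308 to 0.763) and Tnfaip3 (19.8 FPKM). LPS library 1 was the highest of its group for Nlrp3 (50.2 FPKM against 11.3 to 25.1) and Tnfaip3 (108 FPKM against 39.0 to 62.9). Saline library 3 was the lowest for Irf8 (1.67 FPKM against 5.07 to 5.53) and the highest for Il18 (3.58 FPKM against 1.36 to 1.72).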

How the results depend on the processing

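All 9 genes kept the direction of their LPS change under every alternative run, with 7 to 9 called higher and 0 lower. Gsdmd moved across the fold limit under 9 of 18 alternatives (0.49 with quantile normalisation to 1.67 with scaling on the endothelial markers), and Casp8 passed it with endothelial scaling (1.15). That scaling moved the median of all genes to 0.54 (log2) from 0.01, and total-read scaling moved it to -0.14. With the number as a replicate block, 8 genes were called, and Casp8 lost its adjusted p (0.53, limma adjusted p = 0.0532). The numbers do not pair the first experiment's libraries (same-number correlations 0.097, -0.162, -0.209 and -0.117). In the second experiment 0 genes were called under every alternative, the block included.

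Without the fold limit, 32 pathway genes were higher (Nlrp1a and Nlrp1b included) and 9 lower (Nlrc3 included). Over all genes tested, 4399 were higher and 3529 lower. The count of pathway genes called lower (1) became 4 with a pseudocount of 0.1, 0 with no filter, 4 with quantile normalisation, 0 with endothelial scaling, 3 with total-read scaling and 4 with limma-voom, and 1 to 2 with each library left out, the 2 without saline 1, LPS 3 or LPS 6. Genes called higher (1768) became 4231 with endothelial scaling. Genes called lower (1011) became 1840 with a pseudocount of 0.1, 218 with endothelial scaling and 2008 with limma-voom. The causes were not tested.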
